A study of Homo sapiens with 8 samples.

Results

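The genes described here are MYC, its partner MAX and antagonist MXD1, and genes that build ribosomes or supply growing cells with polyamines and nucleotides, 45 in all. They were chosen by name, with earlier results of these data known. A gene was represented by the probe set that the platform annotation gives to that symbol alone. Where a gene had several, the one with the highest mean over the 8 arrays was used. A probe set is a group of short probes that reports 1 transcript. By this rule 40 of the 45 genes had a value, and all 40 passed the floor on dim probe sets, out of 11449 genes tested. NOP56, DKC1, BOP1 and PPAN share their probe sets with other symbols, and GNL3 is not listed, so these 5 have no value here.

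Total RNA came from Reh, 1 established human B-cell precursor line (acute lymphoblastic leukemia in the series' design text, non-Hodgkin lymphoma in the labels). Cells were transfected with an shRNA against CBFA2T3, with a constitutively active IκB kinase β named IKKβ(EE), with both, or with a control shRNA, and each of the 4 groups had 2 biological replicates on Affymetrix U133 Plus 2.0 arrays. CBFA2T3 encodes a transcriptional corepressor, and IKKβ is the kinase that frees NF-κB from its inhibitors. The titles call the control arrays mock, and the labels do not say whether cells with IKKβ(EE) alone also received a control shRNA, how long after transfection RNA was taken, or that a replicate number marks a shared day.

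MYC is a transcription factor that binds DNA as a dimer with MAX, at a hexamer called the E-box. MXD1 also pairs with MAX and represses from the same sites. Genes known as MYC targets include the machinery of ribosome biogenesis: RNA polymerase I transcribes the large rRNA precursor, small nucleolar ribonucleoproteins (snoRNPs) modify it, and assembly factors fold and cut it into the 40S and 60S subunits.

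CBFA2T3 was 8.11 and 8.40 (log2 intensity, replicates 2 and 1) with the CBFA2T3 shRNA, 8.89 and 8.91 with IKKβ(EE), 7.83 and 8.23 with both, and 9.29 and 9.22 with the control shRNA. On 1 of 3 IKBKB probe sets the 4 arrays with IKKβ(EE) lay between 10.39 and 11.97 and the other 4 between 3.60 and 4.43. Of 10 B-precursor markers 9 had a mean above log2 5. So did 2 of 7 T and NK markers (NCAM1 at 5.0005 and NKG7 at 5.09), 2 of 6 myeloid markers (ITGAM at 6.03 and CSF1R at 5.04), 1 of 3 erythroid and platelet markers (HBB at 5.35) and 2 of 4 stromal markers (COL1A1 at 7.38 and VIM at 12.93), while the T cell genes CD3D, CD3E, CD3G, CD2 and CD8A and the myeloid genes CD14, MPO, LYZ and ELANE were under it. In the lists below, a log2 change is the first-named condition minus the second, an error after ± is the standard error (SE) of the limma fit, and a gene is called at a Benjamini-Hochberg adjusted p under 0.05 over all 24481 tested probe sets. RNA was taken from whole cultures, so fewer cells of a kind and less RNA per cell cannot be told apart.

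MYC, MAX and MXD1 did not pass the test in any of the 5 comparisons of 2 groups without the replicate block. MYC was 11.18 and 11.48 with the CBFA2T3 shRNA, 10.81 and 11.26 with IKKβ(EE), 11.12 and 11.15 with both, and 11.38 and 11.61 with the control shRNA (log2, replicates 2 and 1). Both arrays with IKKβ(EE) and both arrays with the double transfection lay below both control arrays, and the CBFA2T3 shRNA arrays overlapped the control. The log2 change of MYC was -0.46 ± 0.18 with IKKβ(EE) (limma adjusted p = 0.485, and 0.0981 with the replicate number as a block). With both transfections it was -0.36 ± 0.18 (limma adjusted p = 0.257, and 0.0734 with the block), and with the CBFA2T3 shRNA -0.17 ± 0.18 (limma adjusted p = 0.724). Without IKKβ(EE) replicate 2 the change of MYC with IKKβ(EE) was -0.24, and without IKKβ(EE) replicate 1 it was -0.69. The change with the CBFA2T3 shRNA ranged from -0.32 to -0.019 as single arrays were left out. Here and below, a group fit with 1 array left out and no block holds unequal numbers of replicates 1 and 2. The replicate difference of the group that lost an array then enters its change.

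MAX was 10.56 and 10.65 with the CBFA2T3 shRNA, 10.18 and 10.35 with IKKβ(EE), 10.41 and 10.58 with both, and 10.21 and 10.34 with the control shRNA. The CBFA2T3 shRNA arrays and the arrays with both lay above both control arrays, and the IKKβ(EE) arrays overlapped the control. The change with the CBFA2T3 shRNA was 0.33 ± 0.13 (limma adjusted p = 0.265). MXD1, close to the floor, was 5.30 and 4.71 with the CBFA2T3 shRNA, 5.94 and 5.54 with IKKβ(EE), 5.93 and 5.37 with both, and 5.77 and 5.03 with the control shRNA. Replicate 2 was above replicate 1 in every group for MXD1 and below it in every group for MYC and MAX. With both transfections MXD1 exceeded the CBFA2T3 shRNA alone by 0.65 ± 0.32 (limma adjusted p = 0.383), which passed with the replicate block (limma adjusted p = 0.0241). That difference was 0.35 without replicate 1 of the CBFA2T3 shRNA and 0.37 without replicate 2 of the double transfection.

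**Figure D1:**
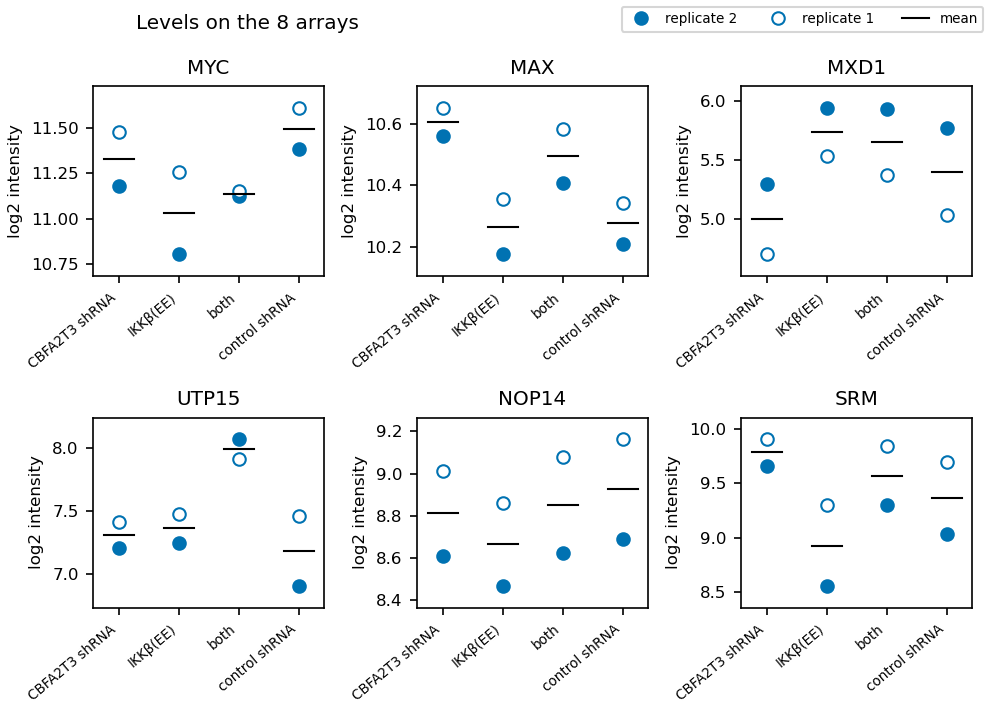
Log2 intensity (vertical axes, each with its own range) of MYC, MAX, MXD1, UTP15, NOP14 and SRM in the 4 groups, with replicate 2 as a filled circle, replicate 1 as an open circle and the mean of 2 arrays as a bar. NOP14 and SRM were lower in replicate 2 than in replicate 1 in all 4 groups, MXD1 was higher, and the 2 UTP15 arrays with both transfections, at 8.06 and 7.91, were above the other 6.

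Between the CBFA2T3 shRNA and the control shRNA, 27 of the 40 genes were higher and 13 lower, with a median log2 change of 0.12 against 0.02 for all genes. limma called 0 of the 40, with or without the replicate block, and 2 had an unadjusted p under 0.05 (1888 of all 11449 genes did). Of all tested probe sets 0.690% were called, and 7.72% with the block. NOB1, the endonuclease that makes the last cut of the 18S rRNA, was 9.70 and 9.64 with the shRNA against 9.19 and 9.38 in control (change 0.38 ± 0.12, limma adjusted p = 0.193). SRM, which makes spermidine, had the largest difference at 0.42 ± 0.32 (limma adjusted p = 0.576), and MXD1 the lowest at -0.40 ± 0.32 (limma adjusted p = 0.604). Single arrays moved both: SRM was 0.089 without control replicate 2 and 0.75 without control replicate 1, and MXD1 was -0.031 and -0.77. By role, 7 of 8 genes of 60S assembly and 7 of 9 of 40S assembly were higher, against 5 of 11 snoRNP and nucleolar genes. Within replicate 1 the median was 0.00 and within replicate 2 it was 0.24. Without control replicate 2 it was -0.08, a fit into which the control's replicate difference enters.

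With IKKβ(EE) alone 35 of the 40 genes were lower than with the control shRNA and 5 were higher, and the median log2 change was -0.22, against -0.04 for all genes, of which 41.8% were higher. limma called 0 of the 40, with or without the block, and 1, MYC, had an unadjusted p under 0.05 (1144 of all 11449 genes did). Over all tested probe sets 0.229% were called, and 3.39% with the block. All 5 RNA polymerase I genes, all 8 genes of 60S assembly and all 4 metabolic targets were on the lower side. GRWD1, a ribosome assembly protein with WD repeats, was 7.50 and 7.94 with IKKβ(EE) and 7.88 and 8.46 with the control shRNA, a change of -0.44 ± 0.25 (limma adjusted p = 0.608) with overlapping arrays. SRM was 8.56 and 9.30 against 9.03 and 9.70 (change -0.44 ± 0.32, limma adjusted p = 0.671). Above control were MXD1 by 0.34 ± 0.32 and UTP15 by 0.18 ± 0.20 (limma adjusted p = 0.740 and 0.776). In 3 of the 40 genes both arrays lay below both control arrays, a pattern found in 23.3% of all tested probe sets. Within replicate 1 the median change was -0.18 and within replicate 2 it was -0.20. Leaving out IKKβ(EE) replicate 2 gave 0.01 and leaving out control replicate 1 gave -0.01. Both of these fits set unequal numbers of replicates 1 and 2 against each other, so the replicate difference enters them, unlike the medians within a replicate.

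With both transfections 1 of the 40 genes, UTP15, was called against the control shRNA, where 8.43% of all tested probe sets were called. UTP15 belongs to the part of the small subunit processome that in yeast also supports rRNA transcription. It was 8.06 and 7.91 with both, against 6.91 and 7.46 with the control shRNA, and the other 4 arrays ranged from 7.20 to 7.48. Both arrays of the double transfection were thus above all others, and the change was 0.80 ± 0.20 (limma adjusted p = 0.0488, and 0.0131 with the block). The call rests on 1 probe set near the threshold. The second UTP15 probe set had a change of 0.16 (limma adjusted p = 0.586), the change of the mean over both was 0.48, and the adjusted p for the first was between 0.0569 and 0.228 when any 1 of the 8 arrays was left out.

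Of the other genes 22 were higher and 17 lower, and the median of the 40 was 0.07, against -0.02 for all genes. With the block limma again called UTP15 alone, where 23.7% of all tested probe sets were called. RRP12, known from yeast as a factor for export of both subunits, was 7.93 and 8.12 with the CBFA2T3 shRNA, 7.26 and 7.61 with IKKβ(EE), 8.34 and 8.25 with both and 7.37 and 8.11 with the control shRNA (change with both 0.55 ± 0.24, limma adjusted p = 0.192). TSR1, a late 40S assembly factor, was 8.97 and 9.26 against 8.34 and 9.04 (change 0.42 ± 0.29, limma adjusted p = 0.393). The lowest change after that of MYC belonged to NHP2, a core protein of the H/ACA snoRNPs, which was 11.84 and 12.04 with the CBFA2T3 shRNA, 11.38 and 11.87 with IKKβ(EE), 11.32 and 11.97 with both, and 11.73 and 12.18 with the control shRNA. Its arrays overlapped between all groups, and the change with both was -0.31 ± 0.27 (limma adjusted p = 0.498). The median was -0.13 without control replicate 2 and -0.08 without replicate 1 of the double transfection, fits into which the replicate difference enters.

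Against IKKβ(EE) alone, the double transfection gave higher values for 37 of the 40 genes, with a median log2 change of 0.24 against 0.02 for all genes, of which 53.3% were higher. No gene was called by limma, where 0.143% of all tested probe sets were called. An unadjusted p under 0.05 was found for 6 of the 40 and for 1651 of all 11449 genes, a similar share. With the replicate block limma called 4 genes higher (RRP12, TSR1, NOP16 and SRM) and 4.56% of all tested probe sets. RRP12 was 8.34 and 8.25 with both and 7.26 and 7.61 with IKKβ(EE) alone, a change of 0.86 ± 0.24 (limma adjusted p = 0.175, and 0.0470 with the block). Its second, dimmer probe set had a change of -0.10 (limma adjusted p = 0.727), and with the mean over both the change was 0.38. TSR1 differed by 0.67 ± 0.29 and NOP16, a 60S assembly factor, by 0.65 ± 0.30 (limma adjusted p = 0.0457 and 0.0459 with the block, 0.342 and 0.363 without it). With the mean over a gene's probe sets these changes were 0.35 for TSR1 and 0.41 for NOP16. SRM was 9.30 and 9.84 against 8.56 and 9.30 (change 0.65 ± 0.32, limma adjusted p = 0.0459 with the block and 0.391 without it). Without IKKβ(EE) replicate 2 the changes were 0.33 for TSR1, 0.32 for NOP16 and 0.28 for SRM.

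All 9 genes of 40S assembly, all 8 of 60S assembly, all 5 of RNA polymerase I and all 4 metabolic targets were on the higher side of this comparison. The 3 below IKKβ(EE) alone were MXD1, NOLC1 and NAT10, at -0.09, -0.03 and -0.01. On its other probe sets NOLC1 was above IKKβ(EE) alone, by 0.58 and 0.11 (limma adjusted p = 0.377 and 0.92). In 15 of the 40 genes both arrays with both transfections lay above both arrays with IKKβ(EE) alone, and in none below, while 21.5% of all tested probe sets showed the first pattern. The median was 0.16 within replicate 1 and 0.28 within replicate 2. It was 0.03 without IKKβ(EE) replicate 2, which had the lowest levels of the series, a fit into which the replicate difference enters. With the block, 0 genes were called without either IKKβ(EE) array or without replicate 2 of the double transfection, and 1 was called without either CBFA2T3 shRNA array.

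Against the CBFA2T3 shRNA alone the double transfection showed 15 genes higher and 25 lower, with a median of -0.03 against -0.04 for all genes. limma called 0 of the 40, where 0.862% of all tested probe sets were called, and 1 had an unadjusted p under 0.05 (1855 of all 11449 genes did). The 1 gene called with the block was MXD1 (given above), where 5.08% of all tested probe sets were called; it was not called without either array of the CBFA2T3 shRNA or without replicate 2 of the double transfection. UTP15 had the largest difference, 0.68 ± 0.20 (limma adjusted p = 0.189), and NHP2 the lowest, -0.30 ± 0.27 (limma adjusted p = 0.631). The median was 0.11 without replicate 1 of the CBFA2T3 shRNA and also 0.11 without replicate 2 of the double transfection. The replicate difference enters both fits.

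The interaction, which is the change with both minus the sum of the changes with either alone, was above 0 for 35 of the 40 genes, with a median of 0.20 against 0.00 for all genes. limma called 0 of the 40, with or without the block, and 0 had an unadjusted p under 0.05 (218 of all 11449 genes did). Over all tested probe sets 0.0123% were called, both with and without the block. RRP12 was highest at 0.58 ± 0.34 and MAX lowest at -0.10 ± 0.18 (both with a limma adjusted p of 1.00). The value for RRP12 was 0.22 with the mean over its probe sets, 0.20 without control replicate 1 and 0.95 without control replicate 2. Without IKKβ(EE) replicate 2 the median was -0.05, a fit into which the replicate difference enters. These 6 comparisons share arrays, the control shRNA arrays in 4 of them and the IKKβ(EE) arrays in 3, so their medians are not separate observations.

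**Figure D2:**
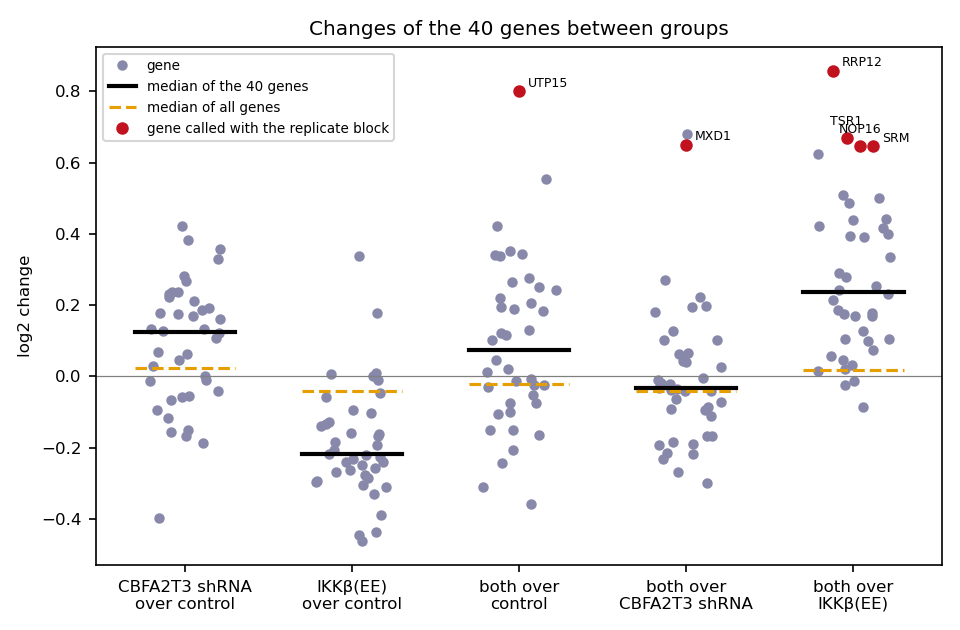
Log2 change (vertical axis) of each of the 40 genes in 5 comparisons of 2 groups, 1 point a gene, spread sideways for legibility, with red points for genes called by limma with the replicate block, black bars for the median of the 40 and dashed bars for the median of all 11449 genes. With IKKβ(EE) alone 35 of 40 points lie under 0, and with both over IKKβ(EE) 37 of 40 lie above it, where RRP12, TSR1, NOP16 and SRM are called.

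The median difference between replicates was larger in size than the median of any of the 6 group comparisons. Of the 40 genes 19 passed the test between replicates. That test draws on the arrays of all 4 groups and has smaller errors, so its count is not comparable with those between groups. For SRM the SE was 0.10 between replicates and 0.32 for the CBFA2T3 shRNA against control. If the replicate numbers mark pairs, as treated here, replicates 1 and 2 are each a single batch. The p then measures how alike the difference was over the 4 groups, not whether it would recur in other batches. In replicate 2, averaged over the 4 groups, 38 of the 40 genes were lower than in replicate 1 and the median log2 difference was -0.30, against 0.00 for all genes, of which 49.4% were higher. limma called MXD1 higher and 18 genes lower. Over all tested probe sets 8.90% were called, 5.20% higher and 3.70% lower. In 33 of the 40 genes replicate 2 was lower in all 4 groups, which held for 20.0% of all tested probe sets. The median difference was -0.21 with the CBFA2T3 shRNA, -0.42 with IKKβ(EE), -0.23 with both and -0.38 with the control shRNA.

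Each array's typical level of the 40 genes was taken as the median distance from the gene's own mean over 8 arrays. It was 0.01 and 0.21 in replicates 2 and 1 with the CBFA2T3 shRNA, -0.39 and 0.02 with IKKβ(EE), -0.04 and 0.19 with both, and -0.21 and 0.23 with the control shRNA. On IKKβ(EE) replicate 2 only 1 of the 40 genes was above its own mean, and on control replicate 2 there were 5, while on replicate 1 there were 36 with the CBFA2T3 shRNA, 37 with both and 35 with the control shRNA. The same distance over all genes stayed between -0.02 and 0.02 on the 8 arrays.

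**Figure D3:**
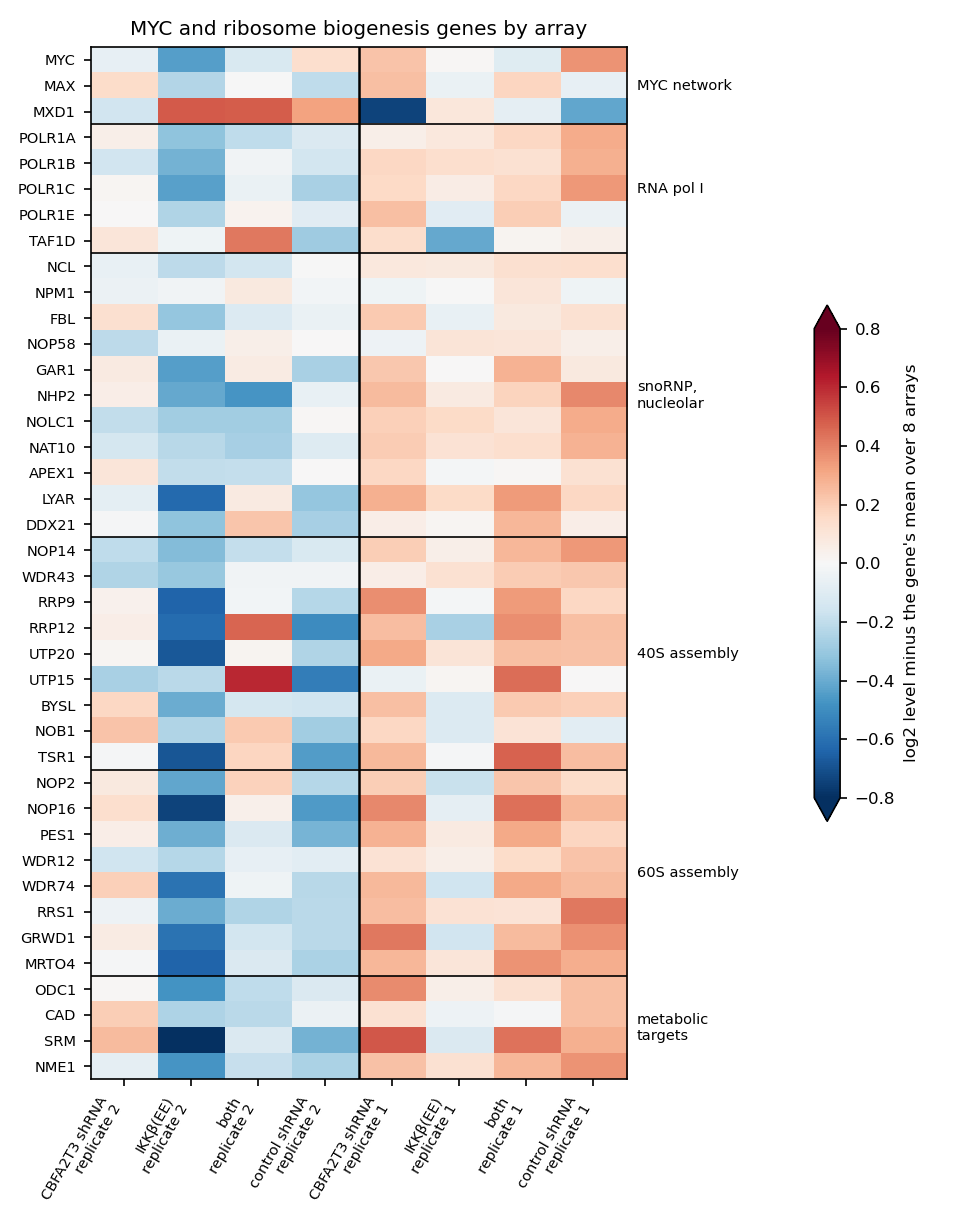
Log2 level of each of the 40 genes (rows, grouped by role) minus its mean over the 8 arrays, with replicate 2 in the left 4 columns and replicate 1 in the right 4; blue is below the gene's mean and red above, and colours end at 0.8 either way. IKKβ(EE) replicate 2 is the bluest column, with 1 of 40 genes above its mean, and MXD1 runs opposite to most rows.

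Among the RNA polymerase I genes 4 of 5 were lower in replicate 2 and 1 was called: POLR1B, the second-largest subunit, by -0.35 ± 0.08 (limma adjusted p = 0.0440). POLR1A, the largest subunit, and POLR1C, shared with RNA polymerase III, differed by -0.30 and -0.37 (limma adjusted p = 0.0807 and 0.0569). On other probe sets POLR1A differed by -0.53 and -0.24 (limma adjusted p = 0.021 and 0.083) and POLR1C by -0.37 (limma adjusted p = 0.0467). Other POLR1B probe sets differed by -0.45, -0.35 and -0.01 (limma adjusted p = 0.0347, 0.0445 and 0.936). Which of these genes was called thus depended on the probe set. TAF1D, a subunit of the promoter factor SL1, went the other way at 0.10 ± 0.13.

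All 11 snoRNP and nucleolar genes were lower in replicate 2 and 4 were called: LYAR (-0.47 ± 0.10), NHP2 (-0.45 ± 0.09), NOLC1 (-0.37 ± 0.07) and NAT10 (-0.36 ± 0.07). NOLC1 is a chaperone of snoRNPs, NAT10 acetylates rRNA cytidines and LYAR is a nucleolar zinc finger protein. NOLC1 was 11.55, 11.46, 11.47 and 11.75 in replicate 2 with the CBFA2T3 shRNA, IKKβ(EE), both and the control shRNA, against 11.94, 11.90, 11.84 and 12.04 in replicate 1. All 4 values of replicate 2 were below all 4 of replicate 1. For NAT10 they were 9.30, 9.22, 9.18 and 9.34 in replicate 2 and 9.64, 9.56, 9.57 and 9.72 in replicate 1, again without overlap. NPM1, an abundant nucleolar chaperone, differed by -0.01 ± 0.07 (limma adjusted p = 0.922). On its other probe sets NPM1 differed by -0.13 and -0.26 (limma adjusted p = 0.286 and 0.0664). NOP58, a core protein of the C/D snoRNPs, differed by -0.11 ± 0.07 (limma adjusted p = 0.338). FBL, the rRNA methyltransferase, differed by -0.17 ± 0.07 (limma adjusted p = 0.146).

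All 9 genes of 40S assembly were lower and 5 were called. NOP14, a component of the small subunit processome, was 8.61, 8.47, 8.63 and 8.69 in replicate 2 (groups in the same order) and 9.01, 8.86, 9.08 and 9.16 in replicate 1, with no overlap. Its difference was -0.43 ± 0.07 (limma adjusted p = 0.0210). RRP9, a protein of the U3 snoRNP, was 6.10, 5.43, 6.04 and 5.84 in replicate 2 and 6.43, 6.05, 6.41 and 6.23 in replicate 1 (difference -0.43 ± 0.08, limma adjusted p = 0.0268). Here the ranges overlapped although each pair fell the same way. TSR1 (-0.49), UTP20 (-0.44) and WDR43 (-0.30) were the others called (with the mean over its 4 probe sets, TSR1 was -0.28 and not called, limma adjusted p = 0.0515), and NOB1 differed by -0.04 ± 0.08 (limma adjusted p = 0.764).

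Genes of 60S assembly had the lower median, -0.43 against -0.30 for 40S assembly, a difference that was not tested. All 8 were lower, and 5 were called: MRTO4, NOP16 (-0.51, and -0.33 with the mean over its probe sets), RRS1, GRWD1 and PES1. MRTO4, known from yeast as a placeholder for a stalk protein, was 10.10, 9.46, 9.99 and 9.85 in replicate 2 against 10.37, 10.21, 10.47 and 10.40 in replicate 1 (difference -0.51 ± 0.09, limma adjusted p = 0.0258). GRWD1 was 8.16, 7.50, 7.94 and 7.88 against 8.51, 7.94, 8.34 and 8.46 (difference -0.44 ± 0.07, limma adjusted p = 0.0221). RRS1, which in yeast helps bring the 5S particle into the 60S precursor, was 8.62, 8.27, 8.42 and 8.45 against 8.91, 8.78, 8.78 and 9.08 (difference -0.45 ± 0.08, limma adjusted p = 0.0276). MRTO4 and RRS1 had no overlap between replicates, and GRWD1 did overlap. PES1 and WDR12, partners in 1 complex, differed by -0.41 (called) and -0.27 (limma adjusted p = 0.0504).

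Of the metabolic targets all 4 were lower and 3 were called. SRM was 9.67, 8.56, 9.30 and 9.03 in replicate 2 and 9.91, 9.30, 9.84 and 9.70 in replicate 1, the lowest difference of the 40 at -0.55 ± 0.10 (limma adjusted p = 0.0253). ODC1, the first enzyme of polyamine synthesis, was 12.13, 11.64, 11.92 and 12.002 against 12.50, 12.16, 12.24 and 12.36 (difference -0.39 ± 0.07, limma adjusted p = 0.0268). NME1, a nucleoside diphosphate kinase, was 12.41, 12.01, 12.29 and 12.22 against 12.71, 12.60, 12.74 and 12.84 (difference -0.49 ± 0.08, limma adjusted p = 0.0222). ODC1 and NME1 did not overlap between replicates and SRM did. CAD, which starts pyrimidine synthesis, differed by -0.16 ± 0.08 (limma adjusted p = 0.250).

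MXD1 was the 1 member called higher in replicate 2, by 0.57 ± 0.08 (limma adjusted p = 0.0168), with pair differences from 0.40 with IKKβ(EE) to 0.73 with the control shRNA. MYC differed by -0.25 ± 0.09 and MAX by -0.15 ± 0.07 (limma adjusted p = 0.104 and 0.191), both lower in all 4 pairs. On 29 further probe sets of 17 of the genes, 28 had the sign of the first, 9 were called lower and 1, the second MXD1 probe set, was called higher. These read the same RNA and are not further replicates. Leaving out either array of a group removes its pair, with medians then between -0.35 and -0.27. Of the 40, 0 were called without the CBFA2T3 shRNA pair, 0 without the IKKβ(EE) pair, 1 without the pair of both and 1 without the control pair. Over all 24481 tested probe sets these fits called 0, 73, 333 and 818, in the same order, so calls fell over the whole table. Without the floor on dim probe sets 7 of the 40 were called, and 884 of all 54613 probe sets.

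**Figure D4:**
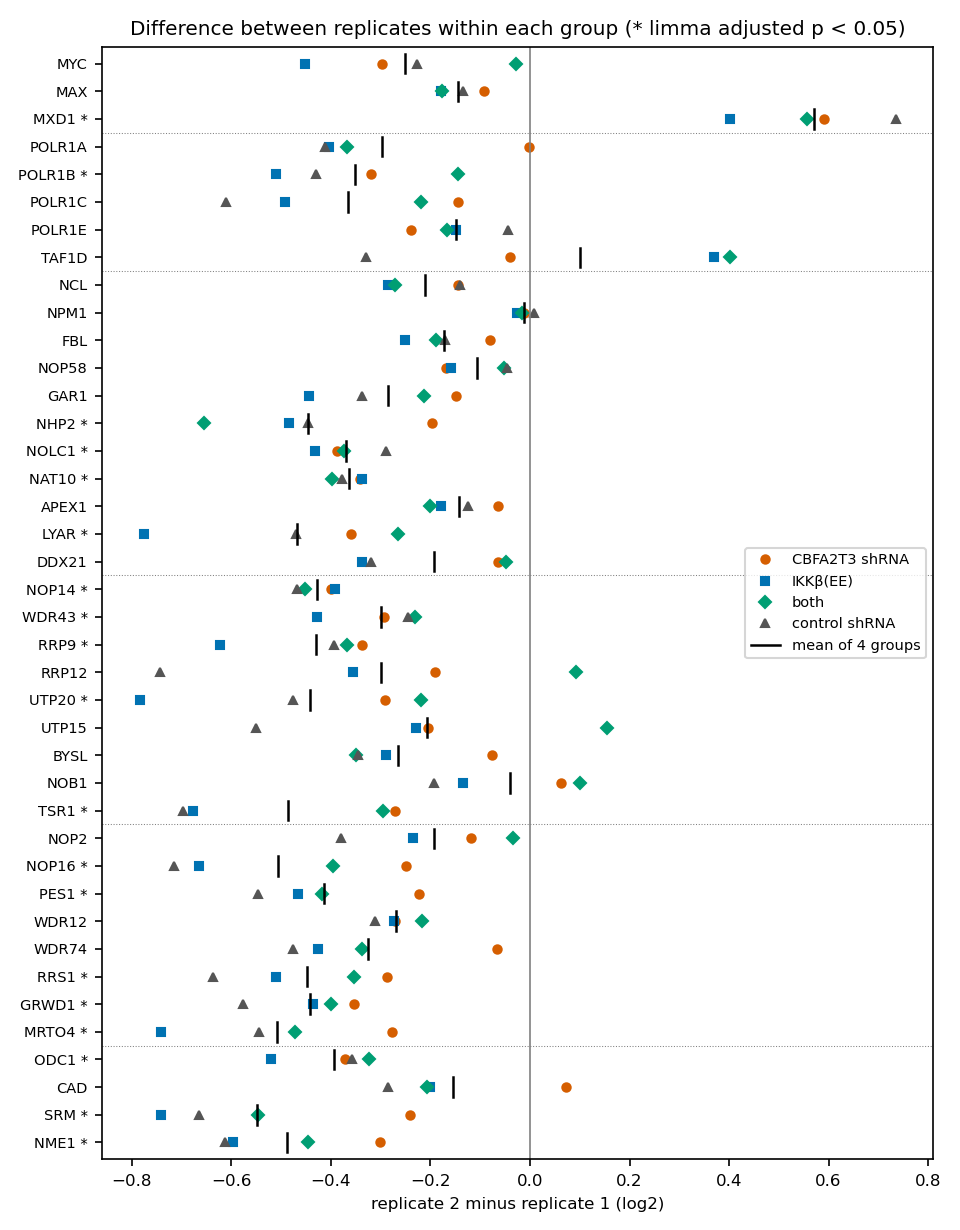
Replicate 2 minus replicate 1 (log2, horizontal axis) for each of the 40 genes in each of the 4 groups, with the mean of the 4 as a bar and an asterisk for genes called by limma. Most genes have all 4 points under 0, and MXD1 has all 4 above it, from 0.40 to 0.73.

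Promoter sequences are shown for the 4 called genes with the lowest adjusted p (MXD1, NOP14, GRWD1 and NME1, all from the replicate comparison), because these moved together or, in MXD1, the other way. Each is 300 bases of GRCh38.p14 from RefSeq, 250 before and 50 from the annotated gene start, read 5′ to 3′ on the gene's strand, with the searched hexamers in capitals. They lie at chr2:69914859-69915158 (plus strand) for MXD1, chr4:2963357-2963656 (minus) for NOP14, chr19:48445733-48446032 (plus) for GRWD1 and chr17:51153309-51153608 (plus) for NME1.
MXD1: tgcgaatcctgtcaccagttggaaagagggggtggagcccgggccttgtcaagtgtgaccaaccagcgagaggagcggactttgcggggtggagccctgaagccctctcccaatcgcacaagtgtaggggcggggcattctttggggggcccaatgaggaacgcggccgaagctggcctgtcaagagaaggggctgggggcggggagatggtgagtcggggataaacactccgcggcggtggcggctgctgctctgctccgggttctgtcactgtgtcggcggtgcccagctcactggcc
NOP14: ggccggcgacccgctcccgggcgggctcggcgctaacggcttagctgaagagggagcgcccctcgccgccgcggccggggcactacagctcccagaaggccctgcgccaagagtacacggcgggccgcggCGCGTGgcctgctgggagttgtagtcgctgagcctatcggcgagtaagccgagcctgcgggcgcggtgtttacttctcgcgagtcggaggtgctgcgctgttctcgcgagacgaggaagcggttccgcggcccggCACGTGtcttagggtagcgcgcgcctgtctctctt
GRWD1: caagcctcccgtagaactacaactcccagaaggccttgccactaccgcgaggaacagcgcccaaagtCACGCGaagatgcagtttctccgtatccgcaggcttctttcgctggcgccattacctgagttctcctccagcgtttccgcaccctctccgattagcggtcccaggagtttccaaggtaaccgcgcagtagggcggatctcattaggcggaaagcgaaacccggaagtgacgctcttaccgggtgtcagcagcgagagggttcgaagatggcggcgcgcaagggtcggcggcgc
NME1: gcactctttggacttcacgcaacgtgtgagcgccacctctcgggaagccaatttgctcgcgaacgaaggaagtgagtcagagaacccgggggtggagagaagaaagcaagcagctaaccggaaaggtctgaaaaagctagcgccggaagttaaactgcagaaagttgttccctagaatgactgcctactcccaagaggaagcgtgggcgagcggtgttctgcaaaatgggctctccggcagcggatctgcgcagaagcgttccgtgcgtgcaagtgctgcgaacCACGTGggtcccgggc

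The hexamers searched were the E-box CACGTG, which reads the same on both strands, and the variant CACGCG on either strand, which reads CGCGTG on the other. NOP14 has CGCGTG beginning 120 bases before the start and CACGTG 15 bases after it, GRWD1 has CACGCG 183 bases before and NME1 has CACGTG 34 bases after. In MXD1 these letters do not occur in this window. Of the 40 genes 34 matched a promoter entry by symbol, and 13 of the 34 (38.2%) held CACGTG, against 7.43% of all 27305 promoters of this length. The variant was also found in 13 (38.2%, against 11.4%), and either of them in 21 (61.8%, against 17.6%). Among the 15384 promoters of genes with a single-symbol probe set, which the 40 genes all have, the shares were higher. They were 8.9% for CACGTG, 15.2% for the variant and 22.3% for either. Of the 16 with an entry that were called lower in replicate 2, 13 (81.2%) held either hexamer, against 8 of the 18 others (44.4%). Those others include MXD1, called higher, and WDR12, just short of a call (limma adjusted p = 0.0504). The split comes from calls in these same data. The list was built around MYC and genes known as its targets, so its shares are not independent of that choice. These shares are descriptions of promoter letters, with no test, and show no binding.

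The other genes of the pathway were counted from lists, beside the 3.70% of all tested probe sets that were called lower in replicate 2. Of 45 further factors of the small subunit processome and 40S assembly, 43 were lower in replicate 2 and 7 were called (median -0.24). FCF1, which in yeast is part of the processome, fell by 0.47 ± 0.09 (limma adjusted p = 0.0270). Of 44 further 60S factors, 39 were lower and 3 were called (median -0.21), with URB2 at -0.43 ± 0.08 (limma adjusted p = 0.0276). All 11 further snoRNP assembly genes were lower and none was called by limma, with 5 at an unadjusted p under 0.05 (3346 of all 11449 genes were under it, in either direction). Of 10 further RNA polymerase I genes 7 were lower and 1 was called, POLR1G, at 8.01, 7.21, 7.80 and 7.44 in replicate 2 and 8.43, 7.86, 8.27 and 8.11 in replicate 1 (difference -0.55 ± 0.08, limma adjusted p = 0.0168). RNA polymerase III genes had 15 of 21 lower and 2 called, POLR3K and POLR3B (-0.49 ± 0.10 and -0.35 ± 0.08). For the 60S and RNA polymerase III lists these calls, 3 of 44 and 2 of 21, are too few to set against the 3.70% over all probe sets.

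Ribosomal proteins, the building blocks that the assembly factors place, did not share this difference: 34 of 52 were higher in replicate 2, the median was 0.01, and limma called 0, with 0 at an unadjusted p under 0.05. In all 5 comparisons of 2 groups 0 of the 52 were called by limma as well, with 0 at an unadjusted p under 0.05, and medians lay between -0.03 and 0.01. Other genes known as MYC-activated had 23 of 31 lower in replicate 2 and 8 called, among them HSPE1, the mitochondrial co-chaperonin (-0.51 ± 0.07), and CDK4, a cell cycle kinase (-0.49 ± 0.08). All 5 measured genes known as MYC-repressed were higher in replicate 2, and 1 was called, the cell cycle inhibitor CDKN1B (0.29 ± 0.07, limma adjusted p = 0.0417). Of 20 proliferation markers 19 had lower values in replicate 2, with a median of -0.18. limma called none of them, with 9 at an unadjusted p under 0.05 (3346 of all 11449 genes were under it). Their part in the difference of the other lists was not tested.

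**Figure D5:**
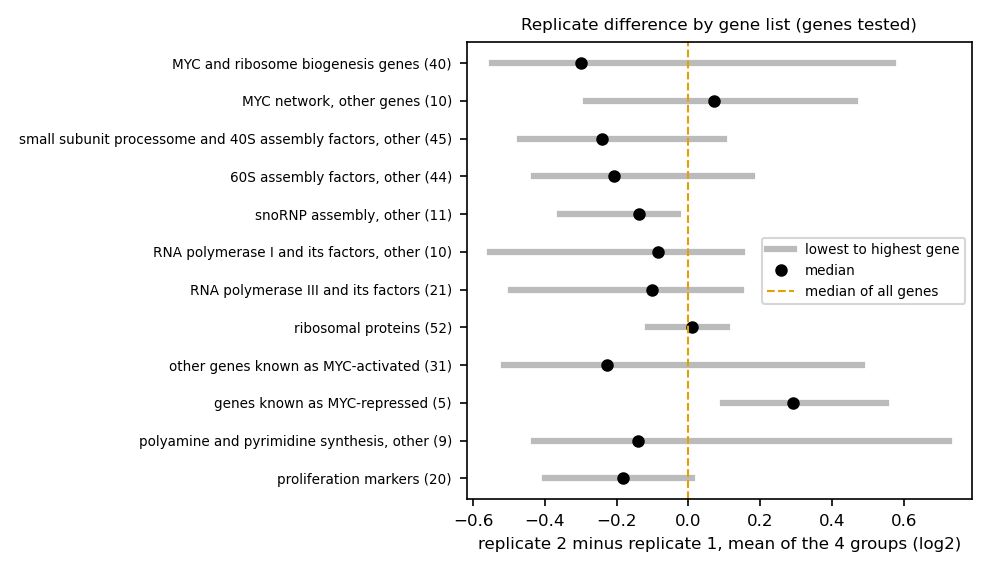
Replicate 2 minus replicate 1 (log2, mean of the 4 groups, horizontal axis) for 12 gene lists, with the median as a point, the lowest to highest gene as a grey bar and the median of all genes as a dashed line; the number of genes tested follows each name. The 40 genes have a median of -0.30, the further 40S, 60S and snoRNP assembly lists have medians of -0.24 to -0.14, and the ribosomal proteins have a median of 0.01.

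Between the groups, the 10 other measured members of the MYC network included 1 called gene, FBXW7, the ubiquitin ligase subunit that directs MYC for degradation. FBXW7 was 8.55 and 9.15 with the CBFA2T3 shRNA, 9.82 and 9.94 with IKKβ(EE), 8.95 and 9.24 with both, and 10.11 and 10.25 with the control shRNA. All 4 arrays with the CBFA2T3 shRNA lay below the other 4. It fell by 1.34 ± 0.21 with the CBFA2T3 shRNA (limma adjusted p = 0.0459) and by 1.09 ± 0.21 with both (limma adjusted p = 0.0260) against the control shRNA. AATF, a nucleolar protein of 40S processing and the 1 called of 45 further 40S genes, fell by 1.08 ± 0.23 with both against control (limma adjusted p = 0.0345). With the CBFA2T3 shRNA alone its change was -1.14 ± 0.23 (limma adjusted p = 0.0776, and 0.00574 with the block). Over all tested probe sets 0.690% were called with the CBFA2T3 shRNA (7.72% with the block) and 8.43% with both. With both, the share called was near this in the MYC network list and under it in the 40S list, so these are results on single genes.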

How the data were processed

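Reh RNA from 4 groups of 2 arrays was analysed from the series' value table. The authors deposited log2 intensities per probe set made with RMA, per the submitters' processing notes, with its version and chip definition not given in the sources used here. Its background correction, quantile step and probe summary mean that a shift of most transcripts in 1 direction is removed and folds of dim genes are understated. Values reach 14.6, from which base 2 was inferred.

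Of 54675 probe sets, 62 control probe sets and 30132 with fewer than 2 arrays at log2 5 or above were left out, leaving 24481. The annotation gave 1 symbol to 41097 probe sets, several to 1801 and none to 11777, and 41043 of the single-symbol ones were found in the reference gene table by identifier. Members were grouped by role. Every member is counted, and values on each array are given for MYC, MAX, MXD1, the 12 called members with the lowest adjusted p and the largest rise and fall of each comparison. Arrays were grouped by the sample labels. limma 3.58.1 in R 4.3.3 fitted 1 mean per group (4 residual degrees of freedom, two-sided tests, Benjamini-Hochberg within each of 7 comparisons), and for replicates a mean difference with group as block. Precision is limited by the number of arrays: the median SE of a group difference was 0.15, and with 2 arrays against 2 an exact permutation p cannot go under 0.333. Nothing beyond the word biological says that the replicates were separate cultures. The fits were tested on simulated data with noise drawn independently for each array and probe set. For the group comparisons those data held no replicate difference, unlike the real arrays, so the block was not tested under one.

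Over probe sets, replicate differences of any pair of groups had a correlation of 0.34 to 0.58 (6 pairs), and the replicate numbers were therefore treated as pairs. This pairing comes from the data, not from the labels. Members and lists were chosen with earlier results of these data known. Alternatives were the floor, moderation, cyclic loess, equal array medians, a mean over probe sets, the block, the compared groups alone and leaving out arrays.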

Additional observations from a re-analysis of the deposited data

How the results depend on the processing

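The median change of the 40 genes kept its direction in all 7 comparisons without the floor, with a floor at log2 6, with trend and robust moderation, cyclic loess, equal array medians, a mean over a gene's probe sets, the replicate block and the compared groups alone, where each was run (the last 2 were not run for the replicate comparison, which already has groups as blocks, and the last not for the interaction). Leaving out 1 array gave medians from -0.079 to 0.33 for the CBFA2T3 shRNA over control, -0.41 to 0.014 for IKKβ(EE) over control, -0.13 to 0.24 for both over control, -0.19 to 0.11 for both over the CBFA2T3 shRNA, 0.034 to 0.41 for both over IKKβ(EE), -0.047 to 0.38 for the interaction and -0.35 to -0.27 for replicate 2 over replicate 1. Such a fit holds unequal numbers of replicates 1 and 2. Of the 40 genes 19 were called between replicates, 17 to 27 under the other settings with a floor and 7 without one (884 of 54613 tested probe sets called). With an array left out, which removes that group's pair, 0 to 1 of the 40 and 0 to 818 of all 24481 probe sets were called. For both over control the 1 call was 0 without the floor, with equal array medians, with a mean over probe sets, with the compared groups alone, and in every fit with 1 array left out. With the replicate block 4 genes were called for both over IKKβ(EE) and 1 for both over the CBFA2T3 shRNA, and it changed no other call of the 40. When 1 array was also left out from the fit with the block, a setting added after seeing the data, the counts were 0 to 3 for both over IKKβ(EE), 0 to 2 for both over control and 0 to 2 for both over the CBFA2T3 shRNA. Sign changes with 1 array left out were seen for MXD1, from -0.029 (without control replicate 1) to 0.71 for IKKβ(EE) over control and from -0.36 to 0.19 for both over IKKβ(EE) (above 0 at 0.11 without IKKβ(EE) replicate 2 and at 0.19 without replicate 1 of the double transfection), and for NHP2, from -0.63 to 0.029 (without replicate 2 of the double transfection) for both over the CBFA2T3 shRNA. In these fits the replicate difference of the group that lost an array enters the change, and the cause of that difference was not tested.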

Other observations

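Outside the ribosome genes, CCND2, the cyclin D2 gene and a known MYC-activated gene, was the list member with the largest change between groups. It rose by 2.38 ± 0.31 with IKKβ(EE) and by 3.88 ± 0.31 with both against the control shRNA (limma adjusted p = 0.0386 and 0.00159). The other 30 measured genes of that list included 1 called in these 2 comparisons, the amino acid transporter SLC7A5. It fell by 0.58 ± 0.14 with both (limma adjusted p = 0.0476). Over all tested probe sets 0.229% were called with IKKβ(EE) and 8.43% with both. CCND2 does not stand for its list, where 28 of 31 genes were lower with IKKβ(EE) and 23 with both. SAT1, which breaks down the polyamines that ODC1 and SRM make, rose by 1.87 ± 0.41 with both against the control shRNA (limma adjusted p = 0.0376) and was higher in replicate 2 by 0.73 ± 0.12 (limma adjusted p = 0.0229). AMD1, which supplies the aminopropyl donor for polyamines, was lower in replicate 2, at -0.43 ± 0.09 (limma adjusted p = 0.0344), as were UMPS and CTPS1 of pyrimidine synthesis (-0.43 ± 0.08 and -0.30 ± 0.07). MXI1, like MXD1 a partner of MAX that opposes MYC, was higher in replicate 2 by 0.46 ± 0.09 (limma adjusted p = 0.0295). It was the 1 called of 10 other MYC network genes, of which 5 were higher and 5 lower in replicate 2 (median 0.07). Over all tested probe sets 5.20% were called higher.

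Proliferation markers were lower with both transfections than with the control shRNA in 18 of 20 genes, with a median of -0.38. limma called 0 of them, with 9 at an unadjusted p under 0.05 (3172 of all 11449 genes were under it). With the replicate block limma called 7, where 23.7% of all tested probe sets were called, 2932 of them lower. These were MKI67, PLK1, MCM2, MCM3, MCM5, MCM6 and MCM7. MCM5, a subunit of the replicative helicase, had the lowest change at -0.71 ± 0.26 (limma adjusted p = 0.132, and 0.0174 with the block).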
